A study of Homo sapiens with 4 samples.

Results

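AT-rich peaks are the ChIP-seq peaks whose 200 bp window, centred on the middle of the called interval, holds 40% G and C or less in hg38, and 5567 of the 104156 peaks in 4 deposited lists met that rule (5.34%, 95% Wilson interval 5.21% to 5.48%). The lists came from MDA-MB-231, a triple-negative human breast cancer cell line, stably transfected with a bacterial artificial chromosome (BAC) that carries the SMAD2 or the SMAD3 gene with a localization and affinity purification (LAP) tag containing GFP. The cells were selected with Geneticin and sorted for GFP, their own untagged Smads were still present, and chromatin was precipitated with an antibody against GFP. Cells were left untreated or received 10 ng/mL TGFβ-1 for 2 h, and each condition was 1 library with 1 peak list, so peaks of a list are not replicates of a condition and no test between conditions was possible. The deposited names of the untreated pair swap the Smads given by their labels, so both untreated libraries are called by their labels here and no direction of a TGFβ-1 or Smad effect was drawn from them. The lists held 11266 peaks for the library labelled LAP-Smad2 untreated, 3511 for the library labelled LAP-Smad3 untreated, 26828 for LAP-Smad2 TGFβ-1 and 62551 for LAP-Smad3 TGFβ-1, with no read totals, so the depth behind each list is unknown.

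Smad2 and Smad3 are the receptor-activated Smads of the TGFβ pathway: the receptor phosphorylates them, they join Smad4, and the complex moves to the nucleus and acts on genes together with partner factors. Smad3 binds short CAGAC elements directly, whereas the common form of Smad2 carries an insert that limits direct DNA contact. AT-rich DNA in the human genome includes long satellite arrays at and near the centromeres, such as alpha satellite, whose monomers can carry the box bound by the centromere protein CENP-B, and the GGAAT satellites of pericentromeric blocks. It also includes A-tracts, stretches of A and T without a TpA step that stiffen the double helix and narrow its minor groove. Runs of alternating T and A, which are flexible and melt readily, are a further part.

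The windows below were printed because each stands for one kind of sequence among the AT-rich peaks. All are hg38, plus strand, 200 bases, and the windows on chromosome 6, in DCC and on chromosome 18 were added after the windows had been looked at. For the first 3 windows, capitals mark every G and C: the member with the highest -log10 q in both TGFβ-1 lists, which aligned nowhere else (chr3:93470480-93470679, between genes), the LAP-Smad2 TGFβ-1 member with the highest -log10 q among those with another copy (chr4:51107310-51107509, between genes), and the LAP-Smad3 TGFβ-1 member of alternating T and A with the highest -log10 q outside chromosome 3 (chr6:166288740-166288939, between genes).
Chromosome 3 window: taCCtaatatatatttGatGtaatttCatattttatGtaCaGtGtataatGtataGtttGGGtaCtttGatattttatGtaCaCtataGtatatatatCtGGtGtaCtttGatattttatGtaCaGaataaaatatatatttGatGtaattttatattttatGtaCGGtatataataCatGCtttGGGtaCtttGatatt
Chromosome 4 window: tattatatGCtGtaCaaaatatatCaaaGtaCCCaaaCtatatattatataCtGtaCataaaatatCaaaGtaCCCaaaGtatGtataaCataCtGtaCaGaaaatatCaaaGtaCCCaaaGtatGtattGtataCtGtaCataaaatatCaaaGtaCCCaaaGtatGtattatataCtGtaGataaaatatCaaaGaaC
Chromosome 6 window: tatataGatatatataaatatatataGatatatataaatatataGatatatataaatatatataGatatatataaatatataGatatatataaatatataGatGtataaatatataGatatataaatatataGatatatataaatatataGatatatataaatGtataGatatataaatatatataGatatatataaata
The next windows carry the GGAAT repeat, and capitals mark each GGAAT or its complement ATTCC. The first lies in an intron of DCC and had the highest -log10 q of this kind in LAP-Smad2 TGFβ-1 (chr18:52792707-52792906), and the second, between genes, had the highest -log10 q among LAP-Smad3 TGFβ-1 members with another copy (chr1:125179807-125180006).
DCC window: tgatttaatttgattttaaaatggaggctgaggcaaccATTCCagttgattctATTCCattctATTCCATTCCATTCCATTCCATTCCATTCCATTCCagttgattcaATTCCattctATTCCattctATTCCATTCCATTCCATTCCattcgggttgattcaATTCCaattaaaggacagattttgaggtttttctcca
Chromosome 1 window: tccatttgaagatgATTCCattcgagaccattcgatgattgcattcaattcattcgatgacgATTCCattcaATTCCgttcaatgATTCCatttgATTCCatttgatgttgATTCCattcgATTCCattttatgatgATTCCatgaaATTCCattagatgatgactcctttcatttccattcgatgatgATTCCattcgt
The alpha-satellite-like window is the LAP-Smad2 TGFβ-1 member with a long tandem unit and a CENP-B box that had the highest -log10 q (chr18:20561890-20562089, between genes), and capitals mark the box.
Chromosome 18 window: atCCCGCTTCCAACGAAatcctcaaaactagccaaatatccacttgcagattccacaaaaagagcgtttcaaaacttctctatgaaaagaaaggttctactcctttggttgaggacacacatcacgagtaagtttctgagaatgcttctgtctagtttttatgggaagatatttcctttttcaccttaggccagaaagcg
The last windows hold the longest A-tract among the AT-rich peaks of each TGFβ-1 list, which capitals mark. The LAP-Smad2 TGFβ-1 window lay between genes, 59.0 kb from LLPH (chr12:66057466-66057665, a tract of 75 bases). The LAP-Smad3 TGFβ-1 window lay in an intron of LINGO1 (chr15:77618399-77618598, a tract of 70 bases). Each tract reached the end of its window and was counted only inside it, so its full length may be greater.
Chromosome 12 window: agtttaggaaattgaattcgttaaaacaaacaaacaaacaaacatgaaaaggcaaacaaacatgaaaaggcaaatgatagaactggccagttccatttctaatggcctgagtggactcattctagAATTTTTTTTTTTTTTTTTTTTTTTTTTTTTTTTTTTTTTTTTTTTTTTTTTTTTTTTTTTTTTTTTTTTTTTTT
LINGO1 window: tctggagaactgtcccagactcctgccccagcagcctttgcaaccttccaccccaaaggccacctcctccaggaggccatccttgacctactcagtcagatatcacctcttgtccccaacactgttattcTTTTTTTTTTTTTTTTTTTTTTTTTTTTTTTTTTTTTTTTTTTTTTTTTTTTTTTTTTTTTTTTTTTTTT

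AT-rich windows made up 1664 of 26828 peaks in LAP-Smad2 TGFβ-1 (6.202%, 95% Wilson interval 5.92% to 6.50%) and 373 of 62551 in LAP-Smad3 TGFβ-1 (0.596%, 0.539% to 0.660%). The share was 10.4 times as high with Smad2 as with Smad3 after TGFβ-1, and the intervals were far apart, although they cover counting error only and not the spread between libraries. In the untreated lists the share was 2627 of 11266 (23.3%, 22.5% to 24.1%) for the library labelled LAP-Smad2 and 903 of 3511 (25.7%, 24.3% to 27.2%) for the library labelled LAP-Smad3. All 4 lists lay below the genome, in which 7602327 of 14687330 windows of 200 bp without N were AT-rich (51.8%). The shares depended on how long each list was: among the 3511 peaks of highest -log10 q in every list, AT-rich windows were 15.5% for LAP-Smad2 TGFβ-1 and 1.51% for LAP-Smad3 TGFβ-1, so the TGFβ-1 lists still differed in the same direction. With a limit of 35% GC the shares were 1.31% and 0.438%, and with the 3 repeat kinds described further on left out they were 1.15% and 0.124%. With a window of 100 bp the LAP-Smad3 TGFβ-1 share was 0.900%.

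**Figure D1:**
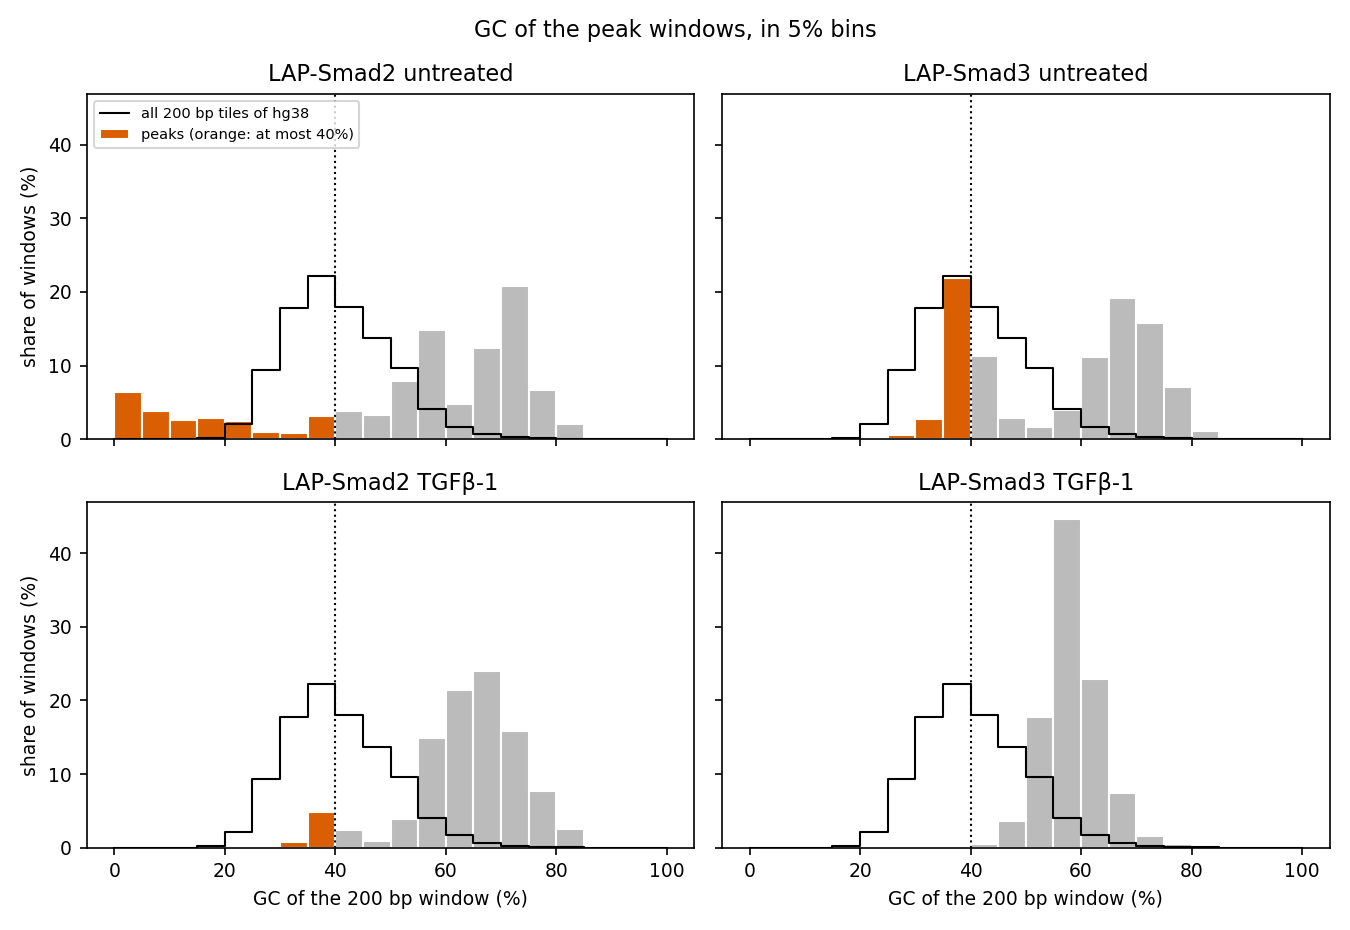
GC of the 200 bp peak windows in each list in bins of 5% GC (x axis, %), as a share of the list (y axis, %), with AT-rich bins in orange, other bins in grey and all 200 bp tiles of hg38 as a black line. The AT-rich peaks sit just below the dotted 40% line in LAP-Smad2 TGFβ-1 and the list labelled LAP-Smad3 untreated (median GC 38% in both), and spread down to 0% GC in the library labelled LAP-Smad2 untreated.

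Within the 40% limit the lists had different GC. The members had a median GC of 38% in LAP-Smad2 TGFβ-1 (quartiles 36% and 39%) and of 17% in LAP-Smad3 TGFβ-1 (quartiles 5% and 35.5%). The library labelled LAP-Smad3 untreated also had a median of 38%, and the one labelled LAP-Smad2 untreated a median of 13%. Windows with 5% G and C or less numbered 96 of 373 in LAP-Smad3 TGFβ-1 (25.7%) and 719 of 2627 in the library labelled LAP-Smad2 untreated (27.4%), against 0 of 1664 in LAP-Smad2 TGFβ-1 and 0 of 903 in the library labelled LAP-Smad3 untreated. These are windows made almost wholly of A and T, and they occurred in 2 of the 4 lists. Just inside the limit, above 38% and up to 40% GC, lay 723 members of LAP-Smad2 TGFβ-1 and 47 of LAP-Smad3 TGFβ-1, and just outside it, up to 42%, lay 451 and 53 peaks.

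Most AT-rich peaks were repeats, and 3 kinds of repeat were defined after the windows had been looked at. A window was called alternating when at least 40% of its 199 base steps were TpA or ApT, GGAAT when it held at least 5 copies of GGAAT or its complement ATTCC, and long tandem when the 2 kb around its centre matched itself at a shift of 160 to 180 or 320 to 360 bases in at least 40% of positions and better than at any shift of 2 to 150 bases. All windows outside these kinds were called remaining. LAP-Smad2 TGFβ-1 members were 60.8% long tandem (1012 of 1664, interval 58.4% to 63.1%), 18.9% GGAAT (314), 3.25% alternating (54) and 17.1% remaining (284). LAP-Smad3 TGFβ-1 members were 63.0% alternating (235 of 373, interval 58.0% to 67.7%), 16.1% GGAAT (60), 20.6% remaining (77) and a single long tandem window. The library labelled LAP-Smad2 untreated held 2114 alternating windows (80.5%), 235 GGAAT windows, 276 remaining windows and 2 long tandem windows. The library labelled LAP-Smad3 untreated held 549 long tandem windows (60.8%), 246 GGAAT windows (27.2%), 96 remaining windows and 12 alternating ones. Among 38012 evenly spaced AT-rich tiles of hg38, 95.9% were of the remaining class, 3.45% long tandem, 0.484% alternating and 0.134% GGAAT. These tiles were not weighted to the GC of the members, and a low GC makes the alternating rule easier to meet. The contrast with the tiles in alternating windows is therefore not separate from the low GC of those lists.

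**Figure D2:**
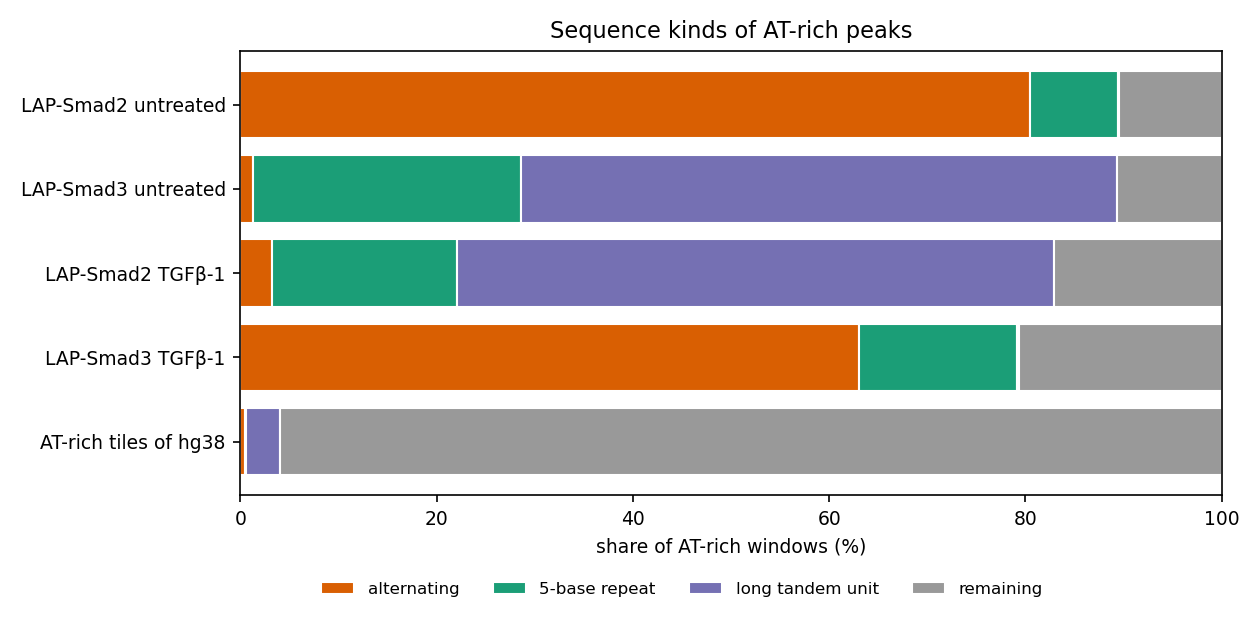
Share of AT-rich windows (x axis, %) of each sequence kind in the 4 peak lists and in 38012 AT-rich tiles of hg38, where "alternating" is the TpA and ApT kind and "5-base repeat" the GGAAT kind. Long tandem units fill 60.8% of the LAP-Smad2 TGFβ-1 bar and alternating windows 63.0% of the LAP-Smad3 TGFβ-1 bar. The tiles are not weighted to the GC of the members.

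The long tandem windows had the period of alpha satellite. The best single-unit shift was 171 bases in 816 of the 1012 windows of LAP-Smad2 TGFβ-1 (80.6%) and in 436 of the 549 of the library labelled LAP-Smad3 untreated (79.4%), and the most common shift of the longer unit was 340 bases in both. A CENP-B box, the alpha satellite element contacted by CENP-B, stood in 376 of these 1012 windows (37.2%) and in 189 of the 549 (34.4%), and in none of the GGAAT or alternating windows of any list. Their GC was narrow, from 32.5% to 40% with a median of 38.5% in LAP-Smad2 TGFβ-1, so that the 40% limit cut through the kind: 1012 of all 1420 long tandem peaks of that list were AT-rich (71.3%). They lay on 23 chromosomes, most often chromosome 5 (166 windows), and 99.8% lay between genes. Fold enrichment over the local background had a median of 3.43 and a range of 2.19 to 10.3, and all members of that list had a median of 3.52.

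The alternating windows were spread over the chromosomes. In LAP-Smad3 TGFβ-1 they lay on 23 chromosomes with 30 of 235 on chromosome 5, 47.7% were in introns, and a median of 70.4% of their base steps were TpA or ApT. Their median GC was 6.5%, and their fold enrichment had a median of 4.97 and a range of 2.13 to 12.1. The 2114 such windows of the library labelled LAP-Smad2 untreated had a median GC of 8.5%, a median fold enrichment of 6.69 and 45.1% in introns. Few distinct fold values occurred among them: the 5 most common values covered 61.3% of the alternating windows in LAP-Smad3 TGFβ-1 and 43.0% in the library labelled LAP-Smad2 untreated, compared with 23.5% and 7.82% of the peaks above 40% GC in the same lists. The 54 alternating windows of LAP-Smad2 TGFβ-1 were less extreme, with a median GC of 22.2%.

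The GGAAT windows were the repeat kind with at least 60 members in each of the 4 lists. They had a median of 12 copies of the 5 bases per window in LAP-Smad2 TGFβ-1, 10 in LAP-Smad3 TGFβ-1, 17 in the list labelled LAP-Smad2 untreated and 11 in the one labelled LAP-Smad3 untreated. In LAP-Smad3 TGFβ-1, 57 of 60 lay on chromosome 1, whereas in LAP-Smad2 TGFβ-1 chromosome 1 held 62 of 314 and 17 chromosomes had at least 1. Their fold enrichment was the lowest of the kinds in LAP-Smad3 TGFβ-1 (median 1.89, range 1.42 to 2.52) while their median -log10 q was 12.01, against 3.84 for the alternating windows of that list.

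The remaining windows differed between the TGFβ-1 lists in their poly-A content. An unbroken run of at least 12 A or 12 T occurred in 32 of 77 remaining windows in LAP-Smad3 TGFβ-1 (41.6%) and in 9 of 284 in LAP-Smad2 TGFβ-1 (3.17%). In the untreated lists it occurred in 66 of 276 (23.9%) for the library labelled LAP-Smad2 and in 0 of 96 for the one labelled LAP-Smad3, which allows a share of up to 3.12%. The strongest remaining window without another copy in LAP-Smad2 TGFβ-1, chosen after its values were seen, lay at a promoter inside KIF5C, which encodes a neuronal kinesin heavy chain (chr2:148881595-148882001, GC 39.5%, fold enrichment 17.1, -log10 q 84.5). It had a single alignment of the whole window, but its central 31-mer occurred 3 times in the genome. A peak at the same place had a fold enrichment of 17.0 in the library labelled LAP-Smad3 untreated, and none of the peaks of the other 2 lists overlapped it. In LAP-Smad3 TGFβ-1 the strongest such window lay in an intron of TEAD1, a DNA-binding partner of the Hippo effectors, and held an A-tract of 36 bases (chr11:12719958-12720159, GC 38.5%, fold enrichment 7.14, -log10 q 10.9), and no other list had a peak there.

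AT-rich peaks were rarely at promoters, taken as within 3 kb of any GENCODE transcript start. After TGFβ-1, 64 of 1664 LAP-Smad2 members (3.85%, interval 3.02% to 4.88%) and 27 of 373 LAP-Smad3 members (7.24%, 5.02% to 10.3%) were at a promoter, compared with 45.1% and 33.0% of the other peaks of the same lists. The members were chosen for low GC, and no promoter share of AT-rich tiles was computed. How much of the gap follows from the GC limit was not tested. The untreated lists had 10.4% against 27.7% for the library labelled LAP-Smad2 and 3.65% against 48.2% for the one labelled LAP-Smad3. Only a few of these starts were of protein-coding transcripts: with those alone the shares were 0.481% for LAP-Smad2 TGFβ-1, 1.61% for LAP-Smad3 TGFβ-1, 3.01% for the library labelled LAP-Smad2 untreated and 0.332% for the one labelled LAP-Smad3 untreated. Between genes lay 88.5% of LAP-Smad2 TGFβ-1 members and 52.5% of LAP-Smad3 TGFβ-1 members, and in introns 7.21% and 39.4%. The median distance to the nearest transcript start was 544 kb for LAP-Smad2 TGFβ-1 members and 26.4 kb for LAP-Smad3 TGFβ-1 members, and 4.37 kb and 6.96 kb for the other peaks of those lists. Without the 3 repeat kinds the promoter shares were higher, at 19.4% for LAP-Smad2 TGFβ-1, 18.2% for LAP-Smad3 TGFβ-1, 15.6% for the library labelled LAP-Smad2 untreated and 31.2% for the one labelled LAP-Smad3 untreated. Over all members, repeat kinds included, the shares within 1 kb of a start were 1.50%, 2.41%, 3.35% and 2.44% in the same order. Of the LAP-Smad2 TGFβ-1 members without another copy, 9.86% were at a promoter within 3 kb.

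Many AT-rich windows occurred more than once in the genome, which matters because a read from one copy can be placed on another. A window counted as having another copy when minimap2 found more than 1 alignment with at least 90% of the 200 bases matching. That held for 1319 of 1664 LAP-Smad2 TGFβ-1 members (79.3%, interval 77.3% to 81.1%) and 192 of 373 LAP-Smad3 TGFβ-1 members (51.5%, 46.4% to 56.5%), against 35.3% and 41.9% of the other peaks of the lists and 9.25% of the AT-rich tiles of hg38. For the untreated libraries it held for 735 of 903 members labelled LAP-Smad3 (81.4%), above the 37.6% of its other peaks, and for 1022 of 2627 members labelled LAP-Smad2 (38.9%), below the 72.4% of its other peaks. By a second rule, a central 31-mer found more than once, these shares were 61.7% and 83.3%. Without the 3 repeat kinds the share with another copy was 62.0% in that list and 52.1% in the one labelled LAP-Smad3 untreated. By kind, 95.1% of the long tandem windows of LAP-Smad2 TGFβ-1 had another copy, 63.7% of its GGAAT windows, 64.8% of its alternating windows and 43.0% of the remaining ones. In LAP-Smad3 TGFβ-1 it held for 58 of 60 GGAAT windows, 43.4% of the alternating and 40.3% of the remaining windows. Among alternating windows the alignment and 31-mer rules gave 33.3% and 57.9% in the list labelled LAP-Smad2 untreated, and 43.4% and 59.6% in LAP-Smad3 TGFβ-1. They gave 64.8% and 81.5% in LAP-Smad2 TGFβ-1, and 50% by both in the list labelled LAP-Smad3 untreated. Windows without another copy by alignment can thus still hold a repeated 31-mer. With copies by alignment left out, AT-rich peaks were 2.07% of LAP-Smad2 TGFβ-1 and 0.498% of LAP-Smad3 TGFβ-1. They were 40.3% of the library labelled LAP-Smad2 untreated and 9.36% of the one labelled LAP-Smad3 untreated.

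A-tracts, unbroken runs of A and T with no TpA step and a length of at least 4, covered less of the AT-rich peaks than of genome windows with the same GC. The mean share of bases in A-tracts was 13.5% ± 7.01 (SD over n = 1664 windows) in LAP-Smad2 TGFβ-1, where hg38 tiles of the same GC had 17.6%, and 15.3% ± 14.7 (SD over n = 373 windows) in LAP-Smad3 TGFβ-1, where such tiles had 23.2%. It was 12.5% against 24.95% in the list labelled LAP-Smad2 untreated and 13.0% against 17.1% in the one labelled LAP-Smad3 untreated. Alternating windows, whose TpA steps break tracts, had 13.6% against 26.05% in LAP-Smad3 TGFβ-1, with no tract at all in 83 of 235, and 5.99% against 28.3% in LAP-Smad2 TGFβ-1. Long tandem windows had 13.0% against 16.1% and GGAAT windows 10.1% against 17.1% in LAP-Smad2 TGFβ-1. The remaining windows were closer to the tiles, with 20.3% against 21.9% in LAP-Smad2 TGFβ-1 and 20.7% against 20.6% in the library labelled LAP-Smad2 untreated. In LAP-Smad3 TGFβ-1 they had 24.7% against 19.2%, and 28 of these 77 held a tract of at least 20 bases, compared with 5 of 284 in LAP-Smad2 TGFβ-1. With tracts of at least 5 bases the mean share of all members was 5.27% in LAP-Smad2 TGFβ-1, 6.68% in LAP-Smad3 TGFβ-1, 4.90% in the list labelled LAP-Smad2 untreated and 4.72% in the one labelled LAP-Smad3 untreated.

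**Figure D3:**
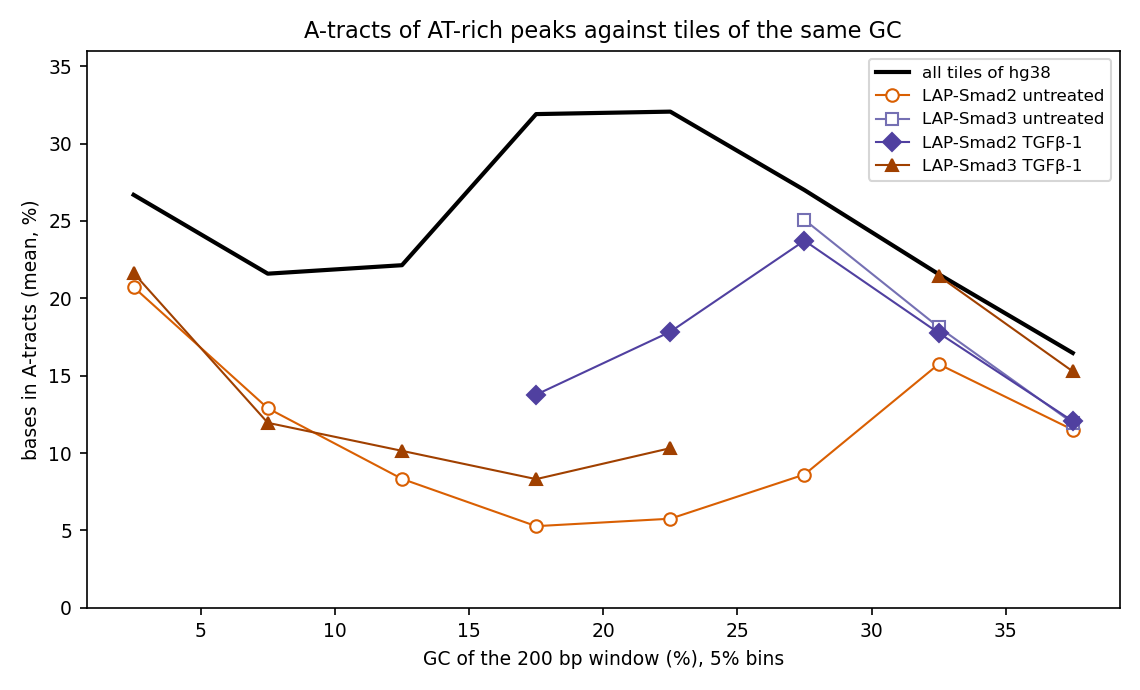
Mean share of bases in A-tracts (y axis, %) by GC of the window in bins of 5% (x axis, %) for the AT-rich peaks of each list, shown where a bin held at least 20 peaks, and for all 200 bp tiles of hg38 (black line). Every point lies below the line, and the gap is widest between 15% and 25% GC, where the library labelled LAP-Smad2 untreated has 5.28% and 5.76% against 31.9% and 32.1% in tiles.

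Short motifs were counted on both strands of the 200 bp and set beside hg38 tiles weighted to the same GC. The AP-1 site TGANTCA, bound by Jun and Fos dimers that often act with Smads, stood in 41 of 1664 LAP-Smad2 TGFβ-1 members (2.46% against 6.24% in tiles) and 3 of 373 LAP-Smad3 TGFβ-1 members (0.804% against 3.10%). Among LAP-Smad2 TGFβ-1 members without another copy its share was 4.93%. The Smad element CAGAC stood in 632 LAP-Smad2 TGFβ-1 members (37.98% against 26.6% in tiles, and 34.8% of the other peaks of the list) and in 14 LAP-Smad3 TGFβ-1 members (3.75% against 11.1% in tiles, and 34.7% of the other peaks). The higher share lay in the long tandem windows, 576 of which held CAGAC (56.9% against 28.5%), while 54 of the 284 remaining windows did (19.01% against 21.8%). Long tandem windows of LAP-Smad2 TGFβ-1 also held CANNTG, the E-box, in 91.4% (65.8% in tiles) and AGGTCA, a nuclear receptor half-site, in 21.7% (9.41% in tiles). Among all members, the E-box share was 79.4% in LAP-Smad2 TGFβ-1 (63.4% in tiles) and 24.1% in LAP-Smad3 TGFβ-1 (32.3% in tiles). The AGGTCA share was 13.9% (8.77% in tiles) and 2.41% (interval 1.27% to 4.52%, 3.698% in tiles). Members labelled LAP-Smad2 untreated lay below their tiles for both motifs, and those labelled LAP-Smad3 untreated above. GGAATG, the TEAD site, overlaps the repeat GGAAT, so its share in the GGAAT windows is largely set by the rule that chose them. It stood in 74.8% of the GGAAT windows of LAP-Smad2 TGFβ-1 and in 75% of those of LAP-Smad3 TGFβ-1, against 12.5% and 12.4% in tiles. This contrast with tiles is therefore not a result about TEAD sites. In the remaining windows of the 2 lists GGAATG stood in 8.45% and 6.49%. The palindrome GTCTAGAC, a high-affinity Smad site, was found in no member. For the 1664 members of LAP-Smad2 TGFβ-1 a count of 0 allows a share of up to 0.180%, above the 0.102% of tiles of the same GC, so a difference was not detectable at this number of windows. Of 46 AP-1 matches in LAP-Smad2 TGFβ-1, 8 lay in the central 40 bp and 13 in the outer 40 bp, and of 855 CAGAC matches 179 and 144 did. Of the letters linked to other factors, TAATTA (homeodomain) stood in 1.74% of LAP-Smad2 and 11.5% of LAP-Smad3 TGFβ-1 members (9.84% and 23.3% in tiles), AGATAA, which GATA proteins bind, in 4.57% and 4.29% (16.9% and 13.4%), TGTGGT (RUNX) in 3.43% and 1.07% (12.2% and 5.43%), and AATCCAC (FOXH1, a Smad2 partner) in 2.70% and 0.268% (2.34% and 1.08%). A match says only that the letters occur in the window.

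The chromosome positions followed the kinds, and 1 Mb bins stood in for chromosome bands. In LAP-Smad2 TGFβ-1, 522 of 1664 members (31.4%, in bins of 5 Mb 49.8%) lay in the 10 fullest bins, led by chromosome 5 from 49 to 50 Mb with 70 members and from 48 to 49 Mb with 59, chromosome 10 from 40 to 41 Mb with 56 and chromosome 1 from 123 to 124 Mb with 54. The 4 leading bins held long tandem windows except for 1 GGAAT window. The library labelled LAP-Smad3 untreated shared 9 of these 10 bins among its own 10 fullest. In LAP-Smad3 TGFβ-1, 53 of 373 members lay in chromosome 1 from 143 to 144 Mb, all of them GGAAT windows, and the second fullest bin held 4. The 10 fullest bins of that list held 21.2% of its members, and 11.05% of those without another copy. Elsewhere the LAP-Smad3 TGFβ-1 members were thinly spread, with 224 of 269 occupied bins holding a single member. The library labelled LAP-Smad2 untreated occupied 1449 bins, and its fullest were chromosome 1 from 143 to 144 Mb (49 members), chromosome 10 from 41 to 42 Mb (30) and from 42 to 43 Mb (27), and chromosome Y from 11 to 12 Mb (26). Chromosome 1 from 143 to 144 Mb was the only bin among the 10 fullest of all 4 lists, with 49, 42, 51 and 53 members in the order labelled LAP-Smad2 untreated, labelled LAP-Smad3 untreated, LAP-Smad2 TGFβ-1 and LAP-Smad3 TGFβ-1.

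**Figure D4:**
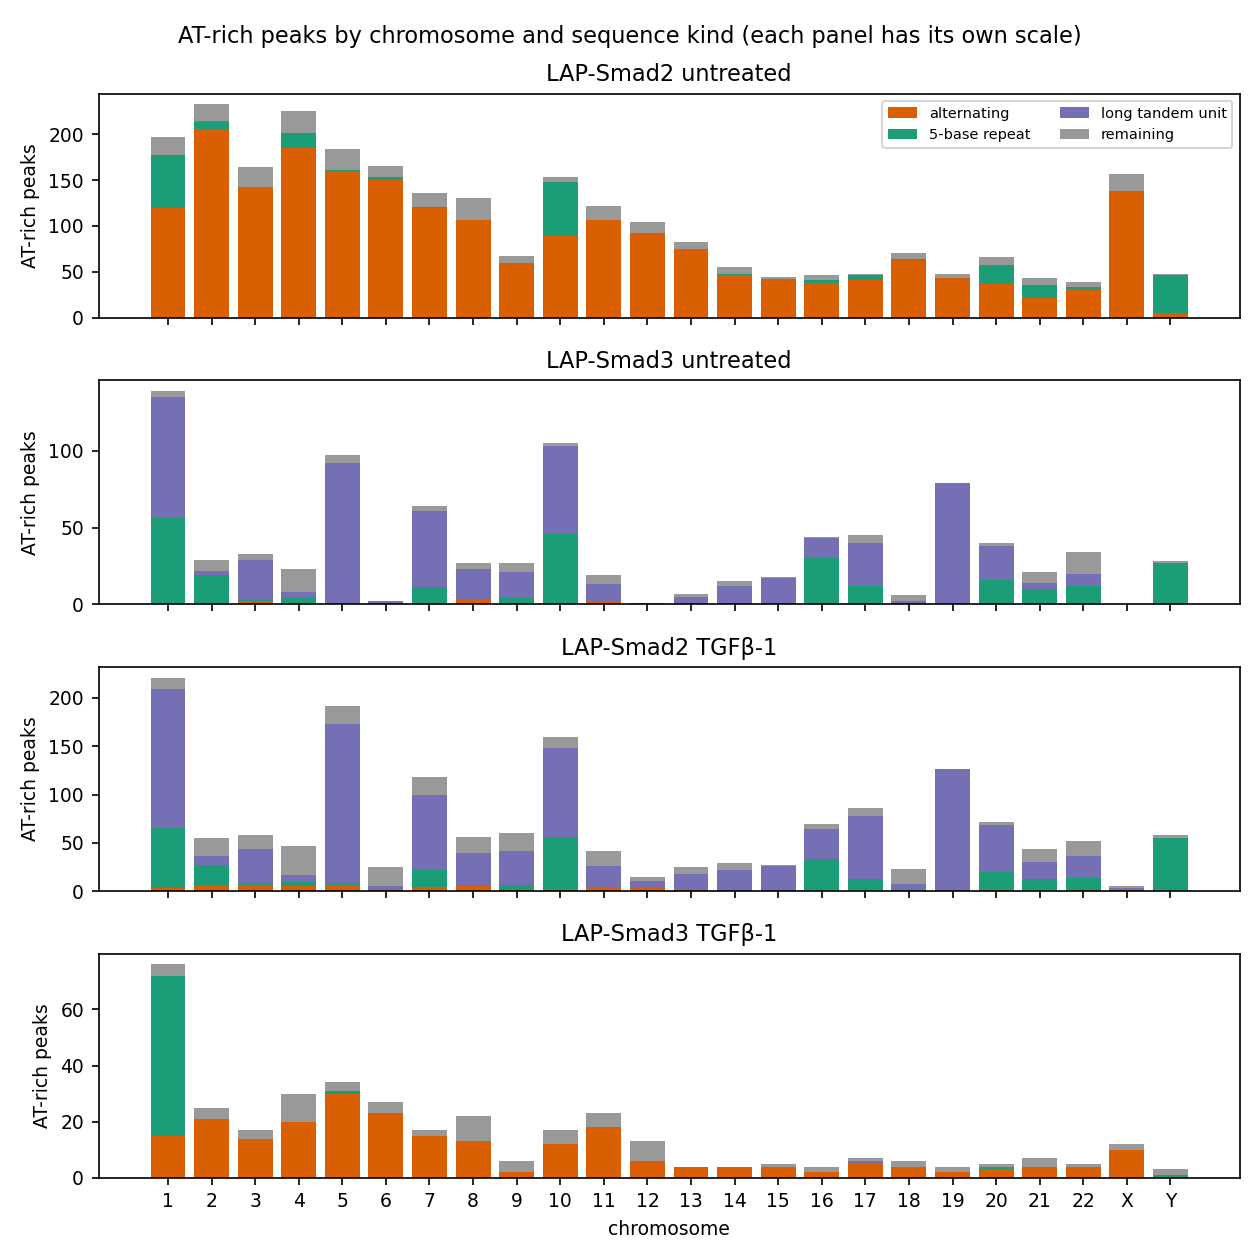
Number of AT-rich peaks (y axis, a separate scale per panel) by chromosome (x axis) and sequence kind in each list, where "alternating" is the TpA and ApT kind and "5-base repeat" the GGAAT kind. LAP-Smad2 TGFβ-1 has tall long tandem bars on chromosomes 1, 5, 10 and 19, and LAP-Smad3 TGFβ-1 has 1 tall bar of the 5-base repeat on chromosome 1.

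Overlap between lists, by at least 1 bp, also differed by kind. Of the LAP-Smad2 TGFβ-1 members, 761 of 1664 overlapped a peak of at least 1 other list (45.7%), against 36.9% of all peaks of the list. Of the LAP-Smad3 TGFβ-1 members, 304 of 373 did (81.5%), against 14.9% of all its peaks. For the library labelled LAP-Smad2 untreated the share was 455 of 2627 (17.3%) against 56.6% of all its peaks, and for the one labelled LAP-Smad3 untreated 689 of 903 (76.3%) against 75% of all its peaks. Between the TGFβ-1 lists 69 of 1664 LAP-Smad2 members (4.15%) overlapped a LAP-Smad3 peak and 77 of 373 LAP-Smad3 members (20.6%) overlapped a LAP-Smad2 peak, compared with 24.5% and 10.6% of all peaks of these lists. Without windows that had another copy the members' shares were 2.03% and 5.52%. The shared places were mostly GGAAT windows, of which 52 of 60 in LAP-Smad3 TGFβ-1 overlapped LAP-Smad2 TGFβ-1 (86.7%), whereas 10 of its 235 alternating windows did (4.26%). None of the 1012 long tandem windows of LAP-Smad2 TGFβ-1 overlapped LAP-Smad3 TGFβ-1, which allows a share of up to 0.296%, and 380 overlapped the library labelled LAP-Smad3 untreated (37.5%, against 9.25% of all peaks). In LAP-Smad3 TGFβ-1, 209 of 235 alternating windows overlapped the library labelled LAP-Smad2 untreated (88.9%, against 7.27% of all peaks), and 4 the one labelled LAP-Smad3 untreated (1.70%, near the 1.1% of all peaks).

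**Figure D5:**
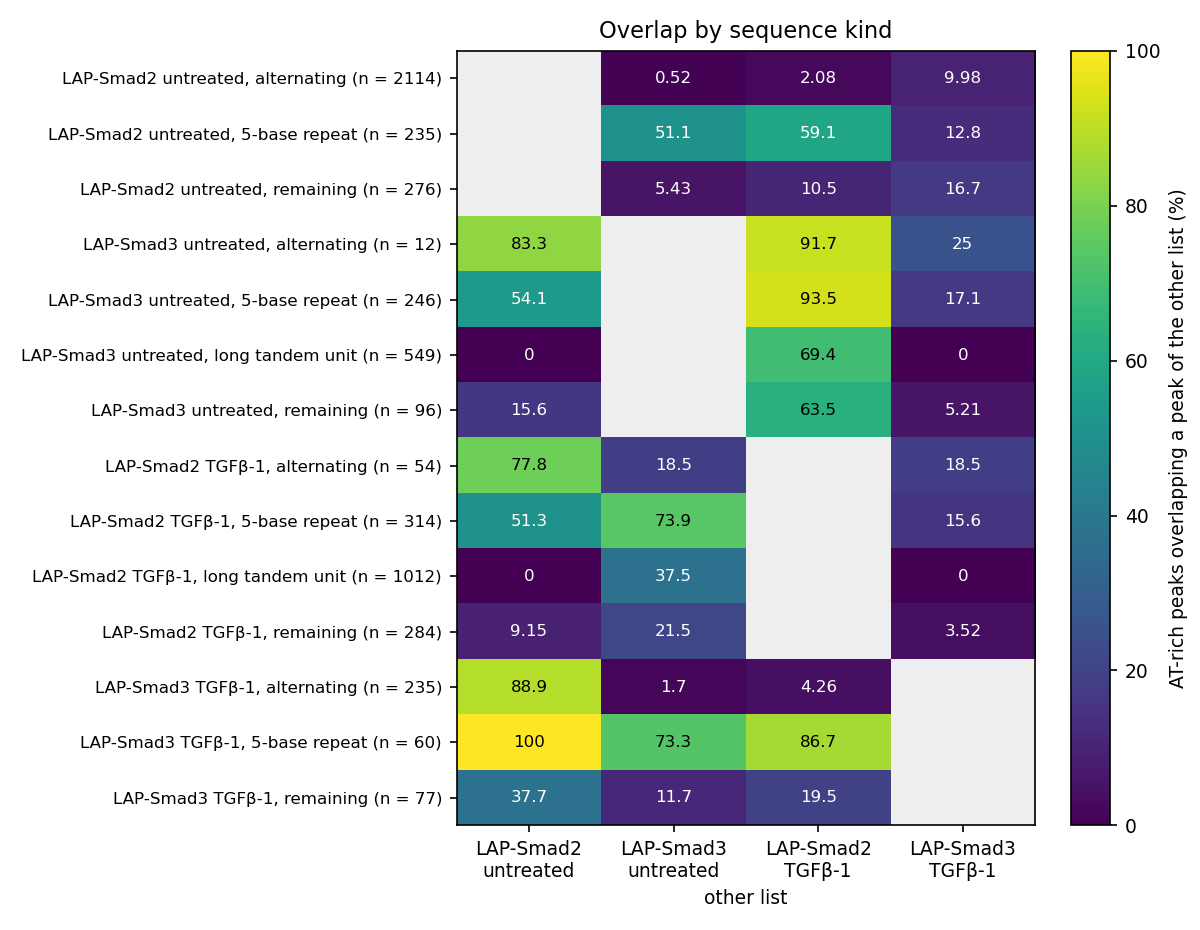
Share of AT-rich peaks (colour and printed value, %) of each list and sequence kind (rows, kinds with at least 10 peaks) that overlap any peak of another list (columns) by at least 1 bp, where "alternating" is the TpA and ApT kind and "5-base repeat" the GGAAT kind. The long tandem rows are at 0 against LAP-Smad3 TGFβ-1, and the 5-base repeat rows of the other 3 lists run from 12.8% to 17.1% against it.

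Merged across the lists, the members formed 4421 separate regions, of which 3541 came from 1 list and 32 from all 4. Of these 32 regions 25 were GGAAT windows, 3 alternating and 4 remaining, and 21 lay between 143184526 and 143267701 on chromosome 1, a GGAAT block between genes. In that block fold enrichment ran from 2.80 to 4.30 in the library labelled LAP-Smad2 untreated, 1.59 to 3.60 in the one labelled LAP-Smad3 untreated, 1.64 to 3.79 in LAP-Smad2 TGFβ-1 and 1.55 to 2.35 in LAP-Smad3 TGFβ-1. The highest -log10 q among the members of every list belonged to 1 place, the chromosome 3 window printed above, in an interval from 93470238 to 93470921 with the nearest protein-coding gene, PROS1, 402 kb away. Its fold enrichment was 4.56 and its -log10 q 121 in the list labelled LAP-Smad2 untreated, 18.4 and 343 in the one labelled LAP-Smad3 untreated, 18.2 and 339 in LAP-Smad2 TGFβ-1 and 2.80 and 62.6 in LAP-Smad3 TGFβ-1. The list labelled LAP-Smad2 untreated and LAP-Smad3 TGFβ-1 thus had the lower values at this place.

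The chromosome 3 and chromosome 4 windows shared sequence. Read on opposite strands they had in common the run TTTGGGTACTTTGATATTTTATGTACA of 27 bases, a search made after both windows had been seen. The run stood in 3 of 1664 LAP-Smad2 TGFβ-1 members and in 4 of 373 LAP-Smad3 TGFβ-1 members. It stood in 3 members of each untreated list and in 0 of 38012 AT-rich tiles. Both windows had been picked for their high -log10 q. At the chromosome 4 place (chr4:51107120-51107699, 736 kb from DCUN1D4) fold enrichment was 14.8 in LAP-Smad2 TGFβ-1, and LAP-Smad3 TGFβ-1 had no peak there.

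Named peaks at genes were few. The third highest -log10 q in LAP-Smad2 TGFβ-1, 98.8, belonged to the GGAAT window in an intron of DCC, which encodes a netrin receptor (chr18:52792615-52792998, fold enrichment 21.2), and the overlapping peak of the library labelled LAP-Smad3 untreated had a fold enrichment of 20.6. A peak of the list labelled LAP-Smad2 untreated also overlapped it, and none of LAP-Smad3 TGFβ-1 did. In LAP-Smad3 TGFβ-1 the second highest, 45.8, was a GGAAT peak at chr1:125178827-125180986 with a fold enrichment of 2.52, and the third, 35.8, lay at chr21:8245702-8246509 on the short arm of chromosome 21, at a transcript start, with 4 alignments and a fold enrichment of 2.94. The bin of chromosome 21 from 8 to 9 Mb held 3 LAP-Smad3 TGFβ-1 members out of 177 peaks. The highest-ranked members of the library labelled LAP-Smad2 untreated after the chromosome 3 place were GGAAT peaks at chr1:125178073-125181044 (fold enrichment 4.41) and chr1:143202311-143202991 (4.18). In the library labelled LAP-Smad3 untreated they were the chromosome 4 place (14.8) and a promoter peak at chr3:96617155-96618520 (10.8).

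Few protein-coding genes held more than 1 AT-rich peak of a TGFβ-1 list. SMAD2, the gene carried by one of the BACs, led in LAP-Smad2 TGFβ-1 with 9 in its gene body (chr18:47808957-47931146), and COL21A1, which encodes a fibril-associated collagen, KIAA0825, PCDH15, a protocadherin of hair cells, and SLAIN1, a microtubule-associated protein, followed with 2 each. In LAP-Smad3 TGFβ-1, MGAM, the intestinal maltase-glucoamylase, had 3, all alternating, and 7 genes had 2, the first of them by name ADAMTS3, AGMO, COL21A1 and LUZP2. COL21A1 was in both lists, but with remaining windows of 33.5% to 38% GC in LAP-Smad2 TGFβ-1 and alternating windows of 1.5% to 3.5% GC in LAP-Smad3 TGFβ-1. The list labelled LAP-Smad2 untreated, with 795 members in protein-coding genes, was led by 6 each in CNTNAP2, a neurexin-family protein, and KCNS3, a potassium channel subunit, and 5 in MALRD1, which were named after their values were seen. Counts were not scaled to gene length. That length was 2305 kb for CNTNAP2, 1825 kb for PCDH15, 742 kb for MALRD1, 484 kb for KCNS3, 199 kb for MGAM and 122 kb for SMAD2.

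AT-rich peaks at SMAD2 had low enrichment beside the list's median of 3.52. Within 100 kb of SMAD2 lay 10 AT-rich peaks of 27 in LAP-Smad2 TGFβ-1, all without another copy, with GC of 27% to 36.5% and fold enrichment of 1.63 to 2.28. The list labelled LAP-Smad3 untreated had 4 AT-rich peaks of 20 there, with fold enrichment of 1.67 to 2.21, LAP-Smad3 TGFβ-1 had 0 of 4, and the list labelled LAP-Smad2 untreated had 1 of 2, an alternating window of 4% GC with a fold enrichment of 10.1. Within 100 kb of SMAD3 there was no AT-rich peak in any list, also not among the 53 peaks of LAP-Smad3 TGFβ-1. Extra copies of these loci on the BACs and binding at the loci cannot be told apart in these data.

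AT-rich peaks near a list of 54 TGFβ pathway genes were counted and read against the AT-rich share of each whole list. In LAP-Smad2 TGFβ-1, 84 peaks lay within 10 kb of 33 of these genes and 9 were AT-rich (10.7%, against 6.202% of the list), all at SMAD2. In LAP-Smad3 TGFβ-1, 218 peaks lay near 46 of them and 1 was AT-rich, the TEAD1 intron peak (0.459%, against 0.596% of the list). In the library labelled LAP-Smad2 untreated 7 of 16 peaks near 8 of the genes were AT-rich (43.8%, against 23.3% of the list), with 2 at COL4A1, a basement membrane collagen, 2 at RUNX1, a Runt factor, and 1 each at SMAD2, ZEB2, a repressor of epithelial genes, and LTBP1, which binds latent TGFβ. The list labelled LAP-Smad3 untreated had 4 of 19, all at SMAD2 (21.1%, against 25.7% of the list).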

How the data were processed

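ChIP-seq peaks were analysed from 4 libraries of MDA-MB-231 cells, 1 per condition. Single-end reads had been aligned to hg38 with Bowtie2, extended to 200 bp and peaks called with MACS2 (q-value of 0.05 or less), per the submitters' processing notes, which also name bedtools, and the study's methods; program versions, the control library and read filters are not given in the sources used here. The deposited lists hold, per peak, a fold enrichment (ratio of the summit to the local background), the -log10 p-value and -log10 q-value, and a display score that the authors' caller derived from the q-value and that was not analysed. No read totals were used, so the depth per sample is unknown and its precision could not be given.

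GC was computed in 200 bp on the centre of each interval, and 10 windows with N were scored on their known bases. Locations came from GENCODE release 44, another copy from minimap2 2.31 alignments with at least 90% of bases matching, and tiles from consecutive 200 bp of hg38, of which 38012 evenly spaced AT-rich ones were aligned. Computation used pysam 0.24.0, pandas 2.3.3 and statsmodels 0.14.6 under Python 3.11.15 with numpy 2.4.6, and the code was tested on simulated data (12 of 12 checks passed). With 1 library per condition no test was made, and 95% Wilson intervals cover counting error only. The members and lists were chosen with earlier results of these data known, and the sequence kinds after the windows had been looked at. Named peaks were the 3 of highest -log10 q per list and, per TGFβ-1 list, the highest without another copy. Named genes were the 5 protein-coding genes with most AT-rich peaks per TGFβ-1 list and members of a TGFβ list of 54 genes with an AT-rich peak within 10 kb, and genes on chromosome 8 were left out. Alternatives changed the GC limit, window, promoter distance, copy rule, tract length, bin size, overlap rule, list length and q-value. Chromosome bands and repeat annotation were not used here.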

Additional observations from a re-analysis of the deposited data

Results flagged for a closer look

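By the sample labels, several shares of the AT-rich peaks moved in opposite directions with TGFβ-1 for the tagged Smads, given here as treated minus untreated in percentage points. Each difference rests on 1 library per condition and was not tested, and the untreated labels conflict with the deposited names, so no direction of a TGFβ-1 effect is drawn. The share of alternating windows differed by -77.2 for LAP-Smad2 and 61.7 for LAP-Smad3, and that of long tandem windows by 60.7 and -60.5. The share of GGAAT windows differed by 9.92 for LAP-Smad2 and -11.2 for LAP-Smad3. The share with another copy differed by 40.4 and -29.9, the promoter share by -6.58 and 3.58, the share in the 10 fullest bins by 22.96 and -15.6, and the AP-1 share by 1.51 and -3.18, LAP-Smad2 first in each pair.

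Paired by the deposited names instead, the share of long tandem windows differed by 0.020 for LAP-Smad2 and 0.192 for LAP-Smad3, that of alternating windows by 1.92 and -17.5, and the share with another copy by -2.13 and 12.6. The share of GGAAT windows then differed by -8.37 and 7.14, the share in the 10 fullest bins by -5.40 and 12.8, the promoter share by 0.192 and -3.19, and the AP-1 share by -1.52 and -0.147. The sign changed with the pairing for all of these shares except the long tandem share for LAP-Smad2 and the AP-1 share for LAP-Smad3.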

How the results depend on the processing

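Of 156 values under alternatives, 71 moved by less than their counting interval and 85 by more. The A-tract intervals counted each base as independent, although bases of a window are not, so they were too narrow. Some of the 85 are small A-tract moves that lie well within the spread between windows. Where 4 values follow, the order is the library labelled LAP-Smad2 untreated, the one labelled LAP-Smad3 untreated, LAP-Smad2 TGFβ-1 and LAP-Smad3 TGFβ-1. With GC of at most 35%, the AT-rich share was 20.1%, 3.82%, 1.31% and 0.438%, the share with another copy 34.1%, 65.7%, 55.1% and 46.4%, and the promoter share 8.21% in the library labelled LAP-Smad3 untreated and 10.2% in LAP-Smad2 TGFβ-1. With GC of at most 45% the AT-rich share was 27.2%, 37.1%, 8.63% and 1.10%, in equally long lists 28.3%, 15.5% and 1.51% where it moved (not in the list labelled LAP-Smad3 untreated), and in 100 bp windows 0.900% in LAP-Smad3 TGFβ-1. With windows that had another copy by the alignment rule left out, the AT-rich share was 40.3%, 9.36%, 2.07% and 0.498%. The A-tract share was then 13.0%, 13.9%, 16.1% and 17.9%, and the share in the 10 fullest bins 5.73%, 44.6%, 29.0% and 11.05%. In the same setting the promoter share was 9.52% and the AP-1 share 7.14% in the library labelled LAP-Smad3 untreated, 9.86% and 4.93% in LAP-Smad2 TGFβ-1, and the overlap between the TGFβ-1 lists 2.03% of LAP-Smad2 and 5.52% of LAP-Smad3 members. Promoter shares were 3.35%, 2.44%, 1.50% and 2.41% within 1 kb and 3.01%, 0.332%, 0.481% and 1.61% with protein-coding starts. With 80% of bases matching, the copy share was 42.7% for the list labelled LAP-Smad2 untreated, and by a central 31-mer found more than once it was 61.7%, 84.4%, 83.0% and 66.5%. A-tracts of at least 5 bases covered 4.90%, 4.72%, 5.27% and 6.68%. With runs broken at the window ends A-tracts covered 12.4%, 12.9% and 13.3% in the first 3 lists, and without promoter peaks 12.4% and 13.3% for the list labelled LAP-Smad2 untreated and for LAP-Smad2 TGFβ-1. The main values of the first 3 lists were 12.5%, 13.0% and 13.5%. These moves were small beside the SD over windows of 13.3, 5.88 and 7.01. In bins of 5 Mb the 10 fullest held 9.90%, 56.3% and 49.8% in the first 3 lists. The overlap was 3.19% of LAP-Smad2 and 15.01% of LAP-Smad3 TGFβ-1 members with mutual overlap of at least 50%, and 3.12% and 15.01% with summits within 100 bp.

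The other alternatives were chosen after seeing the data. Without the 3 repeat kinds, the AT-rich share was 3.24%, 4.15%, 1.15% and 0.124%, the promoter share 15.6%, 31.2%, 19.4% and 18.2%, the copy share 62.0%, 52.1%, 43.0% and 40.3%, and the A-tract share 20.7%, 19.2%, 20.3% and 24.7%. With at least 35% of steps TpA or ApT, alternating windows were 82.1%, 2.44% and 4.57% in the first 3 lists, and with 45% they were 78.04% for the list labelled LAP-Smad2 untreated. The cause of these shifts was not tested. No paired analysis was possible because each condition has 1 library, and for the same reason no library could be left out. The unknown depth and 1 library per condition limit every comparison between lists, and the conflicting names of the untreated pair limit every comparison with those lists.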
